A study of Mus musculus with 11 samples.

Results

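Activated mouse CD8+ T cells given the enzyme AOAH were compared directly with the same kind of cells given a phosphatidylcholine (PC). The comparison rests on 7 of the 11 RNA libraries, 4 with AOAH and 3 with PC, and on every gene whose mean over those 7 reached 1 TPM, which left 11596 of 25562 gene symbols. TPM gives each gene's part of a library's transcripts, corrected for gene length. Neither the choice of libraries nor the choice of genes used a difference between the groups. The other 4 libraries, the vehicle controls, entered no test and serve only to place each gene. A rise or fall below means a level with AOAH above or below that with PC. It does not say on which side of vehicle either agent lay.

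All cells were CD8+ T cells isolated with a kit from spleens of C57BL/6 mice. A first culture took 22 h. Activation followed for 24 h, by 1 µg/mL of antibody against CD3 and 0.5 µg/mL against CD28. The AOAH group received 10 µg/mL of recombinant, His-tagged human AOAH together with the ethanol control. The PC group received 60 µM PC16:0-20:4 and a protein buffer control, which is PBS with 10% glycerol. The vehicle group received ethanol and that buffer. The sample descriptions place AOAH in the activation step and PC in the first culture, while the treatment protocol places both agents in the first culture. The labels also name beads in 1 place and plate-bound antibody in another, and give the medium with or without interleukin-2. No glycerol share is given for the AOAH libraries. Agent, solvent, buffer and possibly the time of addition therefore differ together between the groups and cannot be told apart. The labels do not say whether each library stands for its own mouse or culture. The p-values therefore cover the spread among these libraries alone, and that spread may be technical. A library's number is its batch number in the labels. Batches 1 to 3 hold both agents and batch 4 holds AOAH and vehicle only.

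AOAH, acyloxyacyl hydrolase, is a lipase best known for taking acyl chains off bacterial lipopolysaccharide, and it also acts on phospholipids. PC16:0-20:4 is a membrane phospholipid that carries palmitic acid and arachidonic acid, the precursor of prostaglandins and leukotrienes. A CD8+ T cell that meets antigen leaves its resting state. It shuts down genes that keep naive cells circulating, such as Klf2 and its target S1pr1, takes up glucose and amino acids, builds ribosomes and nucleotides, and enters the cell cycle. It also makes granzymes, cytokines and chemokines.

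The 7 libraries were close in overall make-up. The groups did not overlap, however, in the number of genes reaching 1 TPM or in the share of the most abundant genes. Between 11423 and 11497 genes stood at 1 TPM or more with AOAH, and between 11641 and 11739 with PC. The 10 most abundant genes held 7.51% to 7.73% of all TPM with AOAH and 8.38% to 8.50% with PC, and transcripts of the mitochondrial genome held 3.40% to 3.56% and 3.44% to 3.61%. Within a group, pairs of these libraries correlated across genes with r from 0.985 to 0.987. Pairs of an AOAH and a PC library correlated less, with r from 0.970 to 0.974. The sequencing depth behind each library is unknown, as TPM values carry no counts. The defining chains of CD8+ T cells were present in each library, with Cd8a at 331, 336, 346 and 331 TPM with AOAH and 426, 446 and 430.4 TPM with PC, while Cd4 reached at most 0.27 TPM. The mouse Aoah transcript stood at 0.06 TPM or less, and an added human protein cannot appear in mouse transcript levels.

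The main difference was a cell cycle programme that stood far higher with AOAH. The promoters of its mitotic genes are shown here because those genes moved together and are known to share 2 short sequence elements. In textbook accounts, the cell cycle genes homology region (CHR, TTTGAA) and CCAAT boxes bring mitotic genes under common control by DREAM, MuvB and NF-Y complexes. The 130 bases before the start site are given for Ube2c, which showed the largest rise among genes with a name of their own at 5 TPM or more, and for the 2 B-type cyclins, 5′ to 3′ on the gene's strand, from RefSeq on build GRCm38.p6. Capitals mark CHR and CCAAT matches on either strand. The expression tables use build mm39, and no position was carried from 1 build to the other. The windows lie at chr2:164769799-164769928 (plus strand) for Ube2c, chr13:100786487-100786616 (minus strand) for Ccnb1 and chr9:70421555-70421684 (minus strand) for Ccnb2.
Ube2c: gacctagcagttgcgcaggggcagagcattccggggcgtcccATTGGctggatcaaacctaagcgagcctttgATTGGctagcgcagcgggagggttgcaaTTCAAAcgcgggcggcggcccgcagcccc
Ccnb1: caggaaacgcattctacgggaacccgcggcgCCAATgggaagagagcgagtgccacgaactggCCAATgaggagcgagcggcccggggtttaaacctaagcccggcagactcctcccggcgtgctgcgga
Ccnb2: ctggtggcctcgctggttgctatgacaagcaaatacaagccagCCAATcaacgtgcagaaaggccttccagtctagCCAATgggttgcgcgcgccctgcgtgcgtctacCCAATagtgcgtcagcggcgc
Ube2c holds CCAAT matches that start 88 and 57 bases before the start site and a CHR match 29 bases before it. Ccnb1 holds CCAAT matches 99 and 67 bases before the start, and Ccnb2 holds them 87, 54 and 21 bases before it. Neither cyclin window holds the exact CHR letters.

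Over the 250 bases before the start site, 34 of 44 promoters of G2 and M phase genes (77.3%) held CCAAT on either strand, against 36.0% of the 10775 promoters of tested genes and 33.8% of all 32851 promoters in the RefSeq table. The CHR letters stood in 38.6% of the G2 and M promoters, against 10.8% and 16.0%. Within the last 50 bases they stood in 22.7% of them, against 1.60% of the promoters of tested genes. Promoters of S phase genes held CCAAT in 57.9% of 38 cases. They held the E2F letters TTCGCGC or TTGGCGC in 21.1%, against 5.91% of the promoters of tested genes. These shares cover every tested list member with a promoter in the RefSeq table, called or not. They therefore describe the lists and not the difference between the agents. They count letters in a window and are no record of binding. CCAAT also occurs within longer elements, and matches may overlap.

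**Figure D1:**
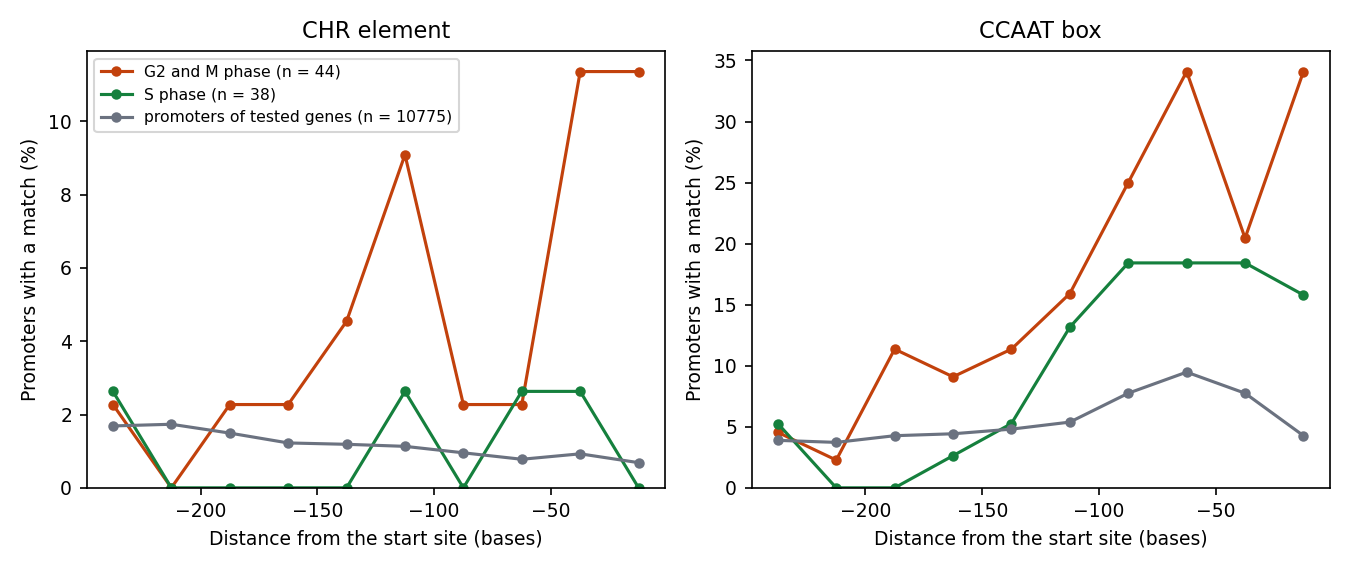
Share of promoters (%) with a CHR match (left) or a CCAAT match (right) that starts in each window of 25 bases, against distance from the start site in bases, for G2 and M phase genes (44 promoters), S phase genes (38) and all tested genes (10775). CHR matches of the G2 and M promoters are most frequent in the last 50 bases, where 22.7% hold one.

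Of the 11596 genes, limma called 5307 at an adjusted p under 0.05 (45.8%), with 2814 higher with AOAH (24.3%) and 2493 lower (21.5%). limma is a linear model fitted gene by gene with a shared variance trend, here on log2(TPM + 1), so differences of low genes are understated. With batch as a block in the model, which uses batches 1 to 3 for the contrast within batches, 2240 genes were higher and 2006 lower. Where a gene below lost or gained its call under another setting, that setting is named with the limma adjusted p it gave, and vehicle joining the fit means 1 model over all 11 libraries. The values of the 4 AOAH and 3 PC libraries did not overlap in 5878 genes (50.7%). Most differences were small: the median size among called genes was 0.33 on the log2 scale. A difference of at least 2-fold was found in 151 genes that were higher (1.30%) and 197 that were lower with AOAH (1.70%), and 4-fold was passed by 1 gene upward, H2ac12, and 19 downward. The median over all tested genes was 0.00, and because nearly every second gene was called, the count of called members in a list is read against these shares.

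**Figure D2:**
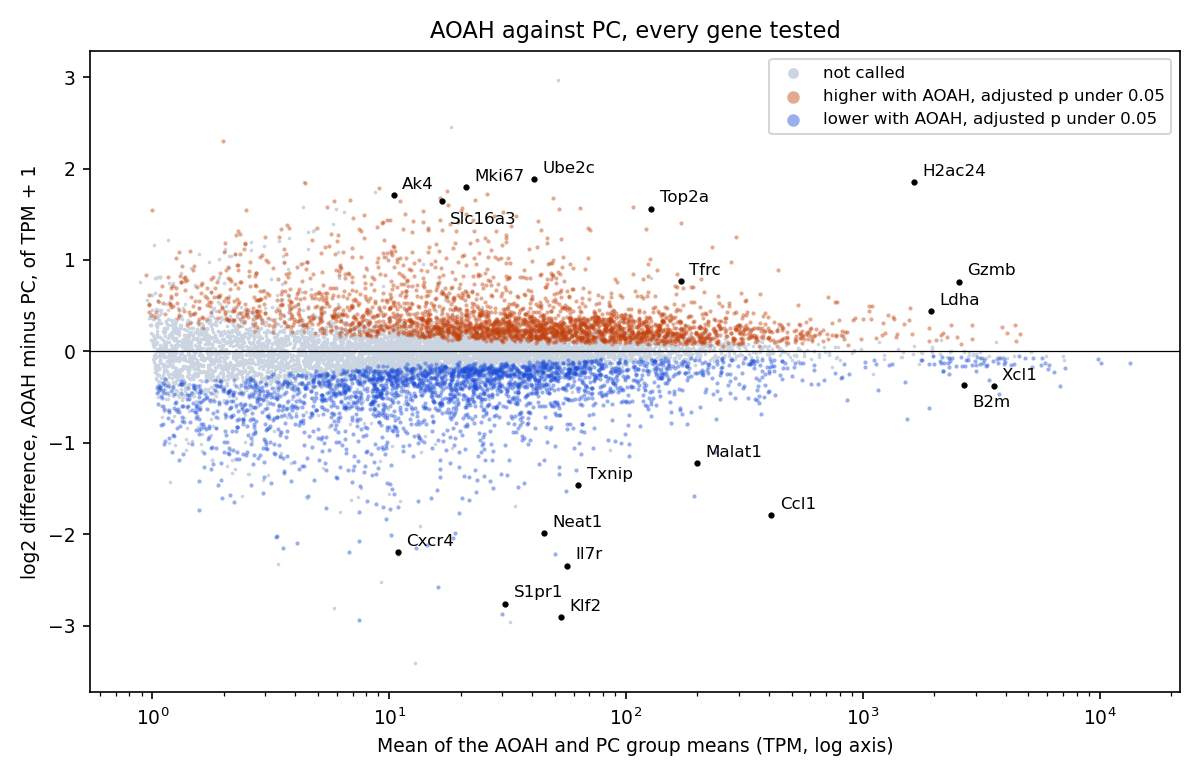
Difference between AOAH and PC (log2 of TPM + 1, AOAH minus PC) against the mean of the 2 group means (TPM, log axis) for the 11596 tested genes, 1 point per gene, coloured by the limma call. Named genes are in black: Klf2, S1pr1 and Il7r lie lowest of them, and Ube2c, H2ac24 and Mki67 highest.

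Genes of mitosis were higher with AOAH without exception in the list. All 48 tested G2 and M phase genes rose (48 higher, 24.3% of all genes being called so), with a median log2 difference of 1.33. Mki67, which codes for the proliferation antigen Ki-67, stood at 32.1, 31.8, 36.2 and 32.9 TPM in the AOAH libraries and 9.19, 8.87 and 8.50 TPM in the PC libraries, with vehicle at 26.7 ± 5.61 (SD, n = 4). The lowest AOAH value lay far above the highest PC value, and the difference was 1.80 ± 0.06 (SE, limma adjusted p = 1.34e-06). Ube2c, which supplies ubiquitin for targets of the anaphase-promoting complex, stood at 62.9, 65.8, 70.0 and 61.2 against 17.99, 15.7 and 16.98 TPM, with vehicle at 54.6 ± 6.72 (1.88 ± 0.06, adjusted p = 1.34e-06). Top2a, the topoisomerase that untangles chromosomes, stood at 192, 184, 198 and 191 against 67.7, 62.9 and 61.9 TPM, with vehicle at 145 ± 12.9 (1.56 ± 0.04, adjusted p = 7.30e-07). For these genes the vehicle mean lay between the groups and nearer to AOAH.

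Other mitotic genes rose by similar sizes. Nusap1, a spindle protein, differed by 1.79 ± 0.07, the mitotic kinase Plk1 by 1.76 ± 0.05, and cyclin B1 (Ccnb1) by 1.72 ± 0.05. Cdca3, a trigger of mitotic entry, differed by 1.68 ± 0.11, cyclin A2 (Ccna2) by 1.68 ± 0.06, the hyaluronan-mediated motility receptor Hmmr by 1.66 ± 0.09, and the spindle motor Kif11 by 1.65 ± 0.05. Ccnb1 stood at 40.3, 40.2, 40.2 and 40.3 TPM with AOAH and 11.5, 10.8 and 12.3 TPM with PC, groups that lie far apart. Adjusted p-values from limma for these genes ran from 1.26e-06 for Kif11 to 1.87e-05 for Cdca3. Summed over the list, G2 and M transcripts stood at 2114 to 2207 TPM with AOAH, 1591 to 1878 with vehicle and 936 to 999.9 with PC. The vehicle libraries were split, at 1878 and 1861 TPM in vehicle 1 and 3 against 1604 and 1591 in vehicle 2 and 4. Their S phase and chemokine sums were split in the same way, so a vehicle SD can hold this split. Its source was not tested. In bulk RNA, fewer cells in a phase and less RNA per cell cannot be told apart.

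DNA replication genes followed the same direction at a smaller size. All 42 S phase genes rose, with a median of 0.68, and 7 of them by at least 2-fold. Rrm2, the regulated subunit of ribonucleotide reductase, stood at 242, 246, 255 and 247 TPM with AOAH, 99.6, 84.8 and 94.0 TPM with PC and 183 ± 15.3 with vehicle (1.41 ± 0.05, adjusted p = 1.95e-06). Rrm1, its partner subunit, differed by 0.96 ± 0.04, the DNA ligase Lig1 by 1.01 ± 0.03 and the polymerase subunit Pola1 by 1.02 ± 0.04. The helicase subunit Mcm5 differed less, at 306 ± 6.94 against 226 ± 4.84 TPM (0.43 ± 0.03, adjusted p = 1.25e-05). The order of size, mitosis above replication, held for the medians of the lists, and the difference between lists was not tested.

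Among 28 G1 cyclin and E2F genes, 23 rose and 3 fell (median 0.55). E2f8, a repressor that E2F itself induces late in G1, stood at 17.5, 15.8, 17 and 18.9 TPM with AOAH and 4.89, 4.77 and 4.84 TPM with PC (1.65 ± 0.07, adjusted p = 2.54e-06). Mybl2, the MYB protein of the mitotic activator complex, differed by 1.16 ± 0.05, cyclin E1 (Ccne1) by 0.85 ± 0.05, and Tfdp1, the partner of E2F factors, by 0.65 ± 0.03. The genes that fell are brakes of the cycle. Cdkn1b, the p27 inhibitor of resting cells, stood at 17.3, 15.7, 18.3 and 14.4 TPM with AOAH and 41.0, 43.3 and 44.7 TPM with PC, with vehicle at 32.3 ± 2.20 (-1.34 ± 0.08, adjusted p = 1.07e-05). Cdkn1a, the p21 inhibitor, stood at 20.9 ± 1.45 against 34.8 ± 3.59 TPM (-0.71 ± 0.08), with vehicle at 18.8 ± 0.950, close to AOAH. Rbl2, the p130 pocket protein of quiescent cells, differed by -0.61 ± 0.06.

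Replication-dependent histone genes were mostly higher with AOAH. These genes are made in S phase, and their mRNAs mostly end in a stem-loop without a poly(A) tail, so libraries of polyadenylated RNA catch only a part of them. Of 41 tested, 28 rose and 2 fell (median 0.97). H2ac24 was the most abundant of this group, at 2640.3, 2695, 2524 and 2480.5 TPM with AOAH and 741, 708 and 699 TPM with PC, with vehicle at 1988 ± 61.2 (1.85 ± 0.03, adjusted p = 2.32e-07). H3c3 differed by 1.48 ± 0.09 and H4c9 by 0.90 ± 0.06. H2ac12 was listed at 0 in each PC library and at 3.57, 4.11, 4.70 and 3.45 TPM with AOAH. The H4c12 rise of 1.85 ± 0.51 (adjusted p = 0.0216) lost its call when vehicle joined the fit (0.122), with a pseudocount of 0.1 (0.0601), and without AOAH 4 (0.0570) or PC 3 (0.0567). H2bc4 (-0.78, adjusted p = 9.10e-04) and H2bc21 (-0.60, adjusted p = 0.00988) fell, and both stood at under 2 TPM in each group mean. H2bc21 fell below the filter when any of the PC libraries was left out, and with a filter of 5 TPM 15 histone genes rose and none was called lower. Histone genes have near-identical copies, so reads may have been divided among them.

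**Figure D3:**
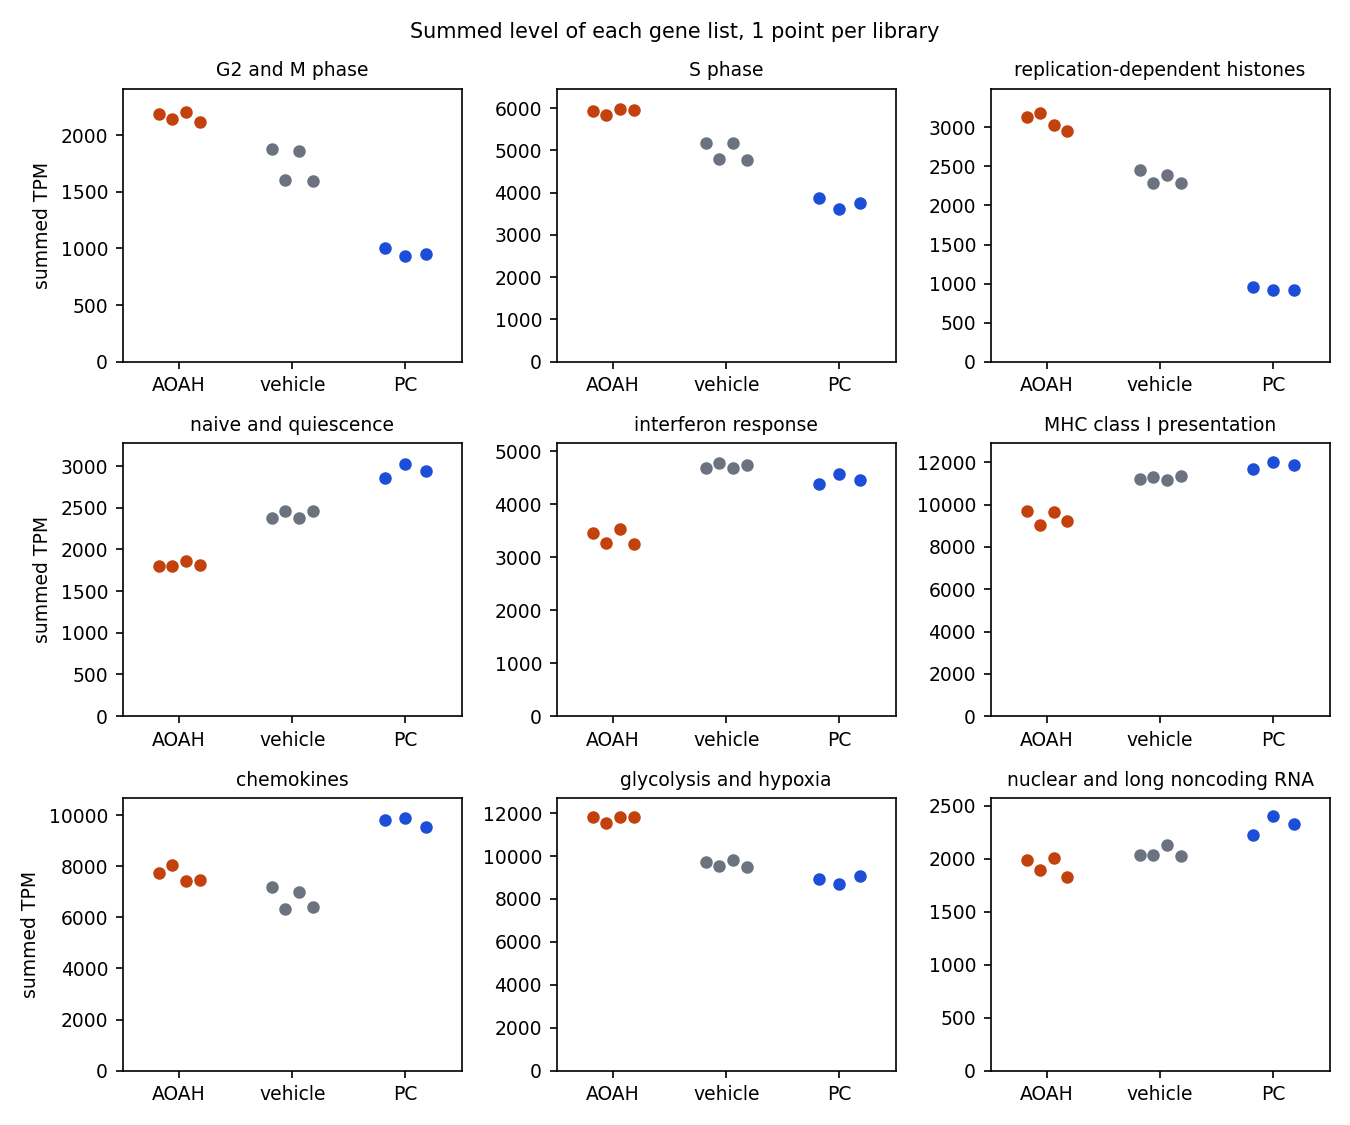
Summed TPM of 9 gene lists, 1 point per library, for AOAH, vehicle and PC, with each axis starting at 0. AOAH and PC do not overlap in any of the 9 lists, and for G2 and M phase the AOAH libraries lie at 2114 to 2207 and the PC libraries at 936 to 999.9.

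In the opposite direction, genes of naive and resting T cells included the largest fall among the named genes, that of Klf2. Of 34 such genes, 27 fell with AOAH (21.5% of all genes were called lower) and 1 rose, with a median of -0.59, and 11 fell by at least 2-fold. Klf2, the transcription factor that holds T cells in a circulating, resting state, stood at 12.1, 11.6, 12.8 and 10.5 TPM with AOAH and 89.6, 96.5 and 96.6 TPM with PC, with vehicle at 43.4 ± 5.85. The 3 groups were fully separate, and the difference between AOAH and PC was -2.90 ± 0.07 (adjusted p = 5.25e-07), or 7.48-fold on the scale of TPM + 1. S1pr1, the KLF2 target that lets T cells leave lymphoid organs, stood at 8.05, 6.12, 7.97 and 6.91 against 53.1, 55.3 and 55.4 TPM, with vehicle at 30.2 ± 2.83 (-2.76 ± 0.09, adjusted p = 1.34e-06). Both of these genes were low in all AOAH libraries and high in all PC libraries, with vehicle in between.

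Il7r, the receptor for the survival cytokine interleukin-7, stood at 22.1, 15.6, 19.3 and 15.0 TPM with AOAH and 93.3, 96.5 and 93.5 TPM with PC (-2.34 ± 0.12, adjusted p = 6.86e-06). Its vehicle mean of 78.6 ± 4.76 TPM lay near the PC values. Tcf7, which codes for the naive and memory factor TCF-1, differed by -0.74 ± 0.03, S1pr4, another sphingosine phosphate receptor, by -1.44 ± 0.05, and the lymph node chemokine receptor Ccr7 by -0.44 ± 0.04. Txnip, a brake on glucose uptake, stood at 33.0 ± 1.32 against 92.7 ± 5.66 TPM (-1.46 ± 0.05), and Pik3ip1, an inhibitor of PI3K in T cells, at 6.61 ± 0.524 against 30.5 ± 4.74 TPM (-2.04 ± 0.10). Adjusted p-values of these genes lay between 1.34e-06 for S1pr4 and 9.10e-05 for Ccr7. Igfbp4 was the member that rose (0.31, limma adjusted p = 0.0290), and it lost its call with batch blocked (0.110), with no filter on low values (0.0710), and without AOAH 3 (0.0587), AOAH 4 (0.0627), PC 1 (0.0874) or PC 3 (0.102). Its authors' deposited log2 fold changes against vehicle were -0.29 for AOAH and -0.53 for PC. The CACCC letters CCACACCC, of the kind that KLF factors bind, stood in 4.55% of 44 promoters of this list and in 3.36% of the promoters of tested genes.

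Other genes with the largest falls were not on the naive list. Cxcr4, the receptor for CXCL12, stood at 3.34, 2.52, 4.46 and 2.89 TPM with AOAH and 17.9, 17.6 and 19.9 TPM with PC, with vehicle at 10.9 ± 1.35 (-2.20 ± 0.14). Ypel3 stood at 17.3 ± 2.32 against 83.4 ± 2.65 TPM (-2.21 ± 0.10). Tsc22d3, the glucocorticoid-induced leucine zipper GILZ, stood at 4.17 ± 0.906 against 21.8 ± 0.868 TPM (-2.15 ± 0.13). All 3 were clearly separate between the groups. Slc28a2b, a nucleoside transporter gene with close paralogs, differed by -2.11 ± 0.11, and Cd7, a T cell surface protein, by -2.01 ± 0.17. Adjusted p-values ran from 5.43e-06 for Slc28a2b to 5.51e-05 for Cd7.

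**Figure D4:**
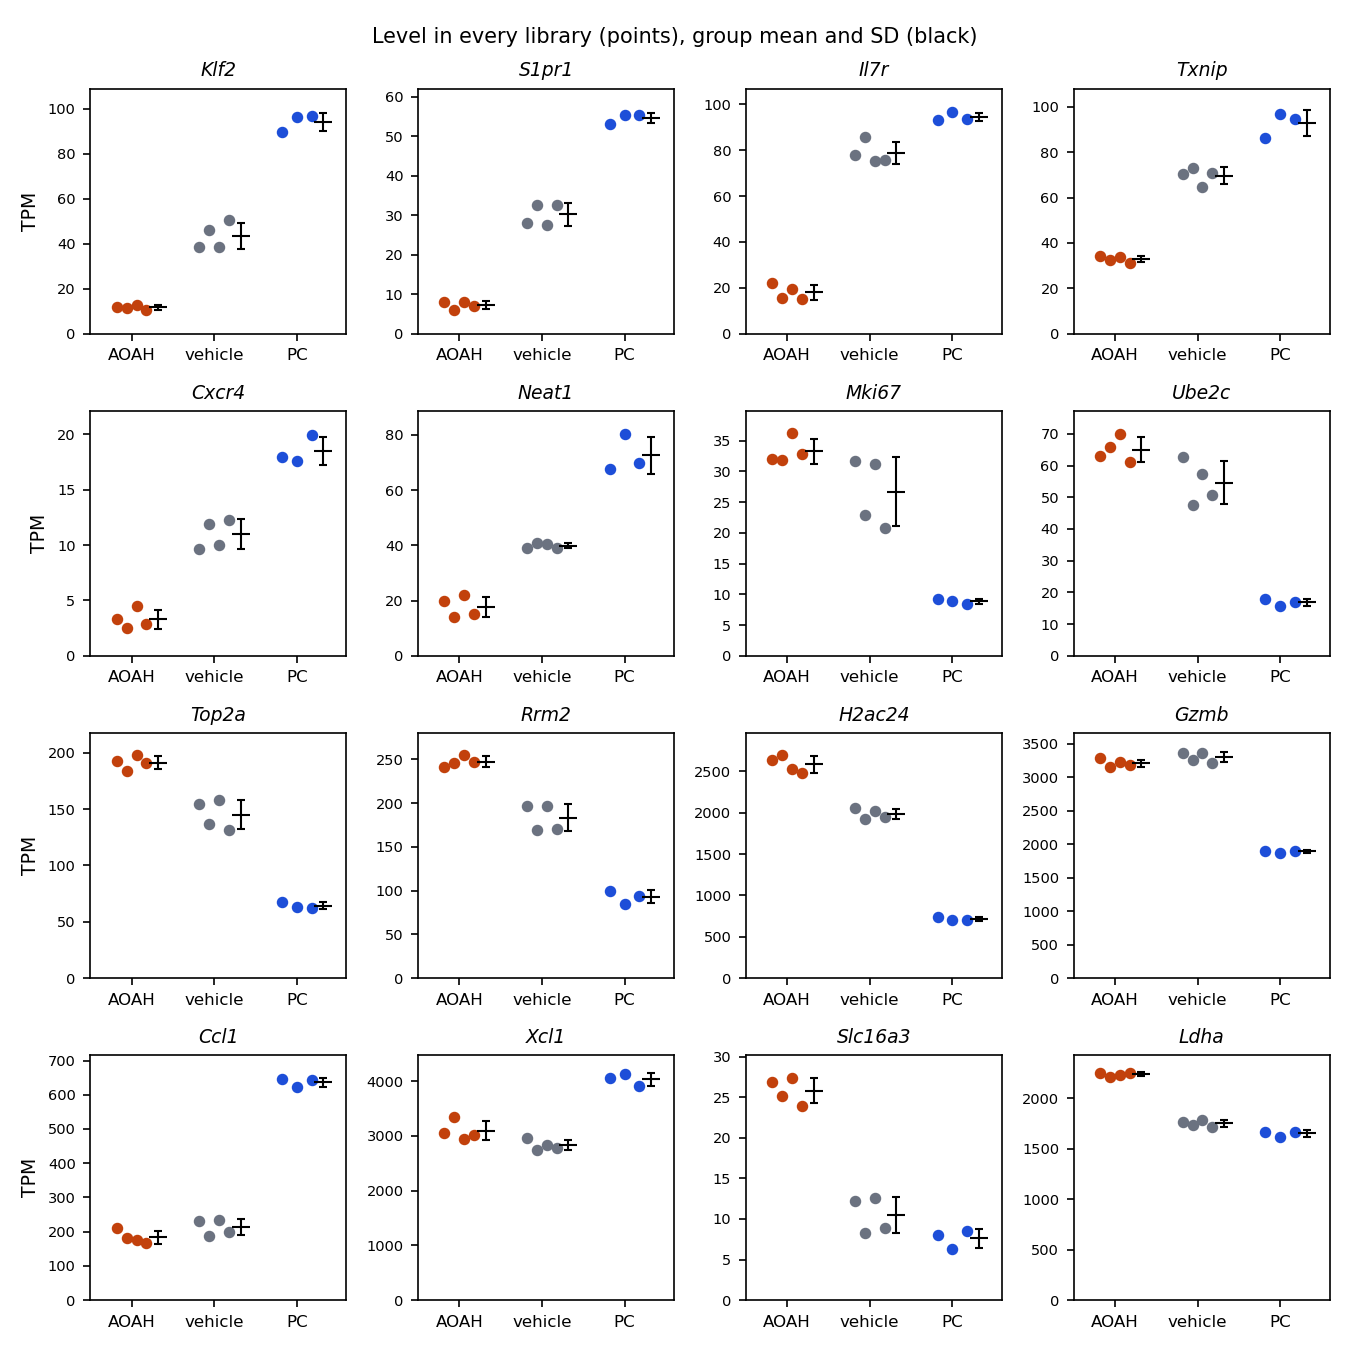
TPM of 16 genes in each library (points), with group mean and SD in black, for AOAH (4 libraries), vehicle (4) and PC (3). Klf2, S1pr1, Il7r, Txnip, Cxcr4 and Neat1 are lowest with AOAH, cell cycle genes are lowest with PC, and Gzmb and Ccl1 set PC apart while AOAH lies near vehicle.

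Effector genes did not move as a block. Of 23 cytotoxic genes, 10 rose and 6 fell (median 0.06, 69.6% called against 45.8% of all genes). Gzmb, the main death-inducing granzyme, stood at 3278, 3155, 3220.5 and 3178 TPM with AOAH and 1897, 1869.5 and 1904 TPM with PC (0.76 ± 0.02, adjusted p = 5.25e-07), and the vehicle mean of 3297 ± 75.5 TPM was just above AOAH. Tbx21, which codes for the effector factor T-bet, differed by 0.60 ± 0.05, Klrk1, the activating receptor NKG2D, by 0.65 ± 0.05, Rab27a, needed for granule release, by 0.44 ± 0.03, and the granzyme B inhibitor Serpinb9 by 0.44 ± 0.03. Perforin (Prf1) rose less (0.21, adjusted p = 0.00313). Srgn, the granule proteoglycan, fell (-0.35), as did the granule protease Ctsw (-0.31) and the CD94 and NKG2A receptor genes Klrd1 (-0.52) and Klrc1 (-0.60). For Srgn, the authors' deposited log2 fold changes against vehicle were 0.19 for AOAH and 0.56 for PC. Stxbp2 (-0.29) and Stx11 (-0.26), a pair of granule fusion proteins, fell as well. Stxbp2 lost its call when vehicle joined the fit (0.151), and Stx11 lost it when vehicle joined the fit (0.0768), with batch blocked (0.115), with no filter on low values (0.0664), and without AOAH 2 (0.0628), AOAH 4 (0.0674), PC 1 (0.0522) or PC 2 (0.0921).

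The 8 tested chemokine genes were all lower with AOAH (median -0.56, range of the members from -1.79 for Ccl1 to -0.10 for Ccl3). Ccl1, a ligand of CCR8, stood at 212, 181, 175 and 168 TPM with AOAH and 647, 621 and 642 TPM with PC, and vehicle at 213 ± 22.97 lay with AOAH (-1.79 ± 0.07, adjusted p = 2.63e-06). Xcl1, which attracts cross-presenting dendritic cells, stood at 3057, 3351, 2944 and 3027 against 4063, 4131 and 3909 TPM, with vehicle at 2832 ± 96.1 (-0.38 ± 0.04, adjusted p = 2.33e-04). Ccl5 (RANTES) stood at 56.7 ± 9.10 against 111 ± 7.47 TPM, and its vehicle mean of 107 ± 9.64 lay with PC. The vehicle level thus sided with AOAH for Ccl1 and with PC for Ccl5. Summed over the list, chemokine transcripts stood at 7425 to 8054 TPM with AOAH, 6340 to 7174 with vehicle and 9519 to 9885 with PC. Ccl4, an inflammatory chemokine, differed by -0.34 ± 0.04 and Ccl9 by -0.55 ± 0.05. The small fall of Ccl3, which is related to Ccl4 (-0.10 ± 0.02, limma adjusted p = 0.0109), lost its call when vehicle joined the fit (0.270) and with quantile normalization (0.192). The authors' deposited log2 fold changes against vehicle were 0.37 for AOAH and 0.45 for PC for Ccl3, and 0.12 and 0.45 for Ccl4.

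Among 12 cytokine genes, 6 fell and 2 rose (median -0.23, 66.7% called against 45.8% of all genes). Tnf stood at 118 ± 13.9 against 159 ± 5.77 TPM (-0.43 ± 0.09, adjusted p = 0.00413) and Il2, the T cell growth factor, at 19.4 ± 0.882 against 28.0 ± 2.99 TPM (-0.50 ± 0.07, adjusted p = 9.57e-04). Il23a, a subunit of interleukin-23, differed by -1.18 ± 0.19 and Ltb, which codes for lymphotoxin beta, by -0.56 ± 0.05. Lif, a cytokine of the interleukin-6 family, rose by 0.60 ± 0.07. Tgfb1 rose slightly (0.15, adjusted p = 0.00895) and lost its call with quantile normalization (0.0683). Ifng, the hallmark cytokine of these cells, stood at 1480.2, 1556, 1408 and 1467 TPM with AOAH and 1496, 1548 and 1425 TPM with PC, groups that overlap. Its difference of -0.01 had a 95% interval of -0.10 to 0.08 (adjusted p = 0.833), and it was called lower with quantile normalization (0.0424). Among 10 chemokine receptors, Cxcr4, Cxcr6 (-0.73), the gut homing receptor Ccr9 (-1.29) and Ccr7 fell and Ccr4 rose (0.84, adjusted p = 1.52e-04). Of these receptors 50.0% were called, against 45.8% of all genes.

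Checkpoint receptors were split. Of 20 genes, 5 rose and 7 fell (60.0% called, against 45.8% of all genes). Pdcd1, which codes for PD-1, stood at 75.0, 77.0, 75.1 and 77.7 TPM with AOAH and 77.6, 73.9 and 76.6 TPM with PC, with vehicle lower at 55.0 ± 5.82. The difference between AOAH and PC was 0.00, with a 95% interval of -0.07 to 0.07 (adjusted p = 0.939). Lag3 stood at 40.5 ± 0.579 against 40.4 ± 1.05 TPM, with vehicle at 26.1 ± 2.43 and a 95% interval of -0.08 to 0.08 for the difference (adjusted p = 0.944). In this pair of genes both agents lay above vehicle and the interval leaves room for only a small difference between them. Cd274, the PD-1 ligand PD-L1, fell (-0.74, adjusted p = 7.58e-06), as did Vsir, the receptor VISTA (-1.12), Dgka, a diacylglycerol kinase that dampens receptor signals (-0.91), and Nt5e, the ectonucleotidase CD73 (-0.99). Pdcd1lg2, the ligand PD-L2, rose (0.38), as did Tigit (0.27). Btla (0.18, adjusted p = 0.00906), Cd160 (0.12, adjusted p = 0.0158) and Cd200 (0.29, adjusted p = 0.0179) rose too, and each lost the call under some settings. Btla lost it with batch blocked (0.0570). Cd160 lost it when vehicle joined the fit (0.113), with batch blocked (0.0735), with quantile normalization (0.0829), and without PC 2 (0.0605), and Cd200 with batch blocked (0.105), and without PC 2 (0.0629) or PC 3 (0.0658).

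Early activation factors were called 11 times higher and 11 times lower among 37 (59.5% called, against 45.8% of all genes). With no filter on low values, 7 were lower. Tfrc, the transferrin receptor that brings in iron, stood at 210.3, 213, 217 and 218 TPM with AOAH and 129, 125 and 121 TPM with PC (0.77 ± 0.03, adjusted p = 2.18e-06), with vehicle at 148 ± 17.1. Batf3, an AP-1 factor of T cells and dendritic cells, differed by 1.03 ± 0.11, Egr3 by 0.44 ± 0.04, and Myc by 0.16 ± 0.03 (limma adjusted p = 0.00193). For Batf3, the authors' deposited log2 fold changes against vehicle were -0.19 for AOAH and -1.32 for PC. The MAP kinase phosphatases Dusp5 (-0.40) and Dusp2 (-0.34) were lower with AOAH than with PC. Against vehicle, the authors' deposited log2 fold changes were 0.25 for AOAH and 0.66 for PC for Dusp5, and 0.04 and 0.40 for Dusp2. Cd69, the early surface marker, stood at 183 ± 3.25 against 172 ± 15.9 TPM, with a 95% interval of -0.03 to 0.23 (adjusted p = 0.192). Eomes, the T-box factor related to T-bet, had an interval of -0.02 to 0.15 (adjusted p = 0.202). Nr4a1, an immediate early gene of receptor signalling, was not called (-0.13, adjusted p = 0.0763). It was called lower when vehicle joined the fit (0.0405), with TMM rescaling (0.0419), with quantile normalization (0.0144), and without AOAH 3 (0.0450) or PC 1 (0.0208). Of 26 costimulatory genes, 7 rose and 6 fell, close to the shares over all genes (50.0% called, against 45.8%). Tnfrsf8, the receptor CD30, was higher with AOAH than with PC (0.85). Its authors' deposited log2 fold changes against vehicle were -0.31 for AOAH and -1.40 for PC. Cd27 fell (-0.66). The others that fell were Tnfrsf14, the receptor HVEM (-0.89), its ligand Tnfsf14, known as LIGHT (-0.32), the adhesion receptor Cd2 (-0.38), Tnfrsf18, which codes for GITR (-0.39), and the tumour necrosis factor receptor Tnfrsf1b (-0.31).

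T cell receptor signalling genes were lower with AOAH in small steps. Of 42, 29 fell and 1 rose, with a median of -0.21. Cd8a differed by -0.37 ± 0.03 (adjusted p = 2.25e-05), the CD3 chains Cd3d by -0.37 ± 0.02 and Cd247 by -0.54 ± 0.03, the kinase Prkcq by -0.56 ± 0.03, and the TEC kinase Txk by -0.82 ± 0.04. Summed over the list, these transcripts stood at 4725 to 4870.4 TPM with AOAH and 5506 to 5681 with PC. Summed variable segments of the receptor alpha chain stood at 625 to 673 TPM with AOAH and 769 to 825 with PC, and those of the beta chain at 919 to 1008 and 1271 to 1324. The phosphatase gene Ptpn2 rose (0.12, adjusted p = 0.0150), and it lost its call with batch blocked (0.0507), with quantile normalization (0.0839), and without PC 3 (0.0609).

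Interleukin-2 receptor and STAT5 genes were split, 8 higher and 11 lower of 27 (70.4% called, against 45.8% of all genes). Il2ra, the inducible chain of the high-affinity receptor, stood at 166, 173, 169 and 175 TPM with AOAH and 132, 139.8 and 134 TPM with PC (0.33 ± 0.03, adjusted p = 8.89e-05). The 2 groups did not overlap. The STAT5-linked genes Socs2 (0.62), Bcl2l1 (0.21) and Stat5a (0.24) rose as well. For Socs2, the authors' deposited log2 fold changes against vehicle were -0.09 for AOAH and -0.83 for PC. Receptors of the interleukin-6 family fell, Il6ra by -1.48 ± 0.07 and Il6st by -0.83 ± 0.04, as did the kinase Jak1 (-0.57 ± 0.03) and the feedback inhibitor Socs3 (-0.80 ± 0.05). Il15ra, the alpha chain that presents interleukin-15, rose (0.24, adjusted p = 0.00919). Jak3, the kinase bound to the common gamma chain, rose too (0.22, adjusted p = 0.0153) and lost its call with batch blocked (0.0509), and without PC 1 (0.0568).

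Interferon-stimulated genes were broadly lower with AOAH. They are switched on by interferons through a complex that holds IRF9, which binds the interferon response element. Of 59 tested, 46 fell and 1 rose, with a median of -0.47, and 17 fell by at least 2-fold. Ifit3, an RNA-binding antiviral protein, stood at 3.63, 3.70, 4.35 and 3.16 TPM with AOAH and 14.7, 15.7 and 16.7 TPM with PC, with vehicle at 11.4 ± 0.712 (-1.83 ± 0.09, adjusted p = 5.97e-06). The vehicle mean lay nearer to PC. Samhd1, which degrades free nucleotides, stood at 156, 141, 164 and 144 against 317, 335 and 323 TPM, with vehicle at 279 ± 2.83 (-1.10 ± 0.05, adjusted p = 4.99e-06). Slfn1, a Schlafen gene of resting T cells, differed by -1.53 ± 0.07, Irf9 by -0.97 ± 0.05, and Ifit1bl1, which has close paralogs, by -1.99 ± 0.12. The summed list stood at 3244 to 3534 TPM with AOAH, 4382 to 4562 with PC and 4684 to 4778 with vehicle. The gene that rose, Eif2ak2 (the kinase PKR; 0.39, adjusted p = 0.0357), lost its call with batch blocked (0.156), with no filter on low values (0.0854), and without AOAH 1 (0.0619), AOAH 3 (0.0802), AOAH 4 (0.0797), PC 1 (0.0992) or PC 3 (0.122).

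Not every interferon gene was called. Isg15 stood at 9.61, 9.27, 11.3 and 9.30 TPM with AOAH and 10.1, 8.15 and 10.2 TPM with PC, overlapping values with a 95% interval of -0.17 to 0.28 for the difference (adjusted p = 0.688). The promoters of Ifit3 and Isg15 are shown beside that of Ifit1, which fell from 3.84 ± 0.300 TPM with PC to 2.12 ± 0.115 TPM with AOAH (-0.63 ± 0.08), because all 3 hold the interferon response element (GAAA, any 2 bases, then GAAA) but only the IFIT genes were called. These 3 were chosen after their values were seen. The windows end at the start site, run 5′ to 3′ on the gene's strand and lie at chr19:34583349-34583528 (plus), chr4:156200819-156200938 (minus) and chr19:34640749-34640888 (plus) on GRCm38.p6. Capitals mark matches on either strand.
Ifit3: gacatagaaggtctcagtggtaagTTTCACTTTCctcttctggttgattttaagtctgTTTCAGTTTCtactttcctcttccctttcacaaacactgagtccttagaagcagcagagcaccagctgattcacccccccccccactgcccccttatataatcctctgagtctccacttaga
Isg15: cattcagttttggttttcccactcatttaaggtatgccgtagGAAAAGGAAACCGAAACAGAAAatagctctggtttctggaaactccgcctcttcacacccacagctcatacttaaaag
Ifit1: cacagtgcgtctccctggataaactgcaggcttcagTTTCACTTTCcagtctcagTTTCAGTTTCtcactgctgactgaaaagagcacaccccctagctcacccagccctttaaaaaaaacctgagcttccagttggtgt
Ifit3 holds matches that start 156 and 122 bases before the start, Ifit1 104 and 85 bases, and Isg15 a run of 3 overlapping matches at 78, 72 and 66 bases. The element stood in 28 of 55 promoters of the list (50.9%), against 2.73% of the promoters of tested genes and 2.98% of all promoters. That share covers list members called or not, so it describes the list and not the difference between the agents.

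MHC class I genes, which interferon also raises, fell in 14 of 22 cases (median -0.29). H2-K1, a classical class I heavy chain, stood at 1519, 1432, 1573 and 1475 TPM with AOAH and 2289, 2329 and 2285 TPM with PC, with vehicle at 2068 ± 51.1 (-0.62 ± 0.03, adjusted p = 5.52e-06). H2-D1 differed by -0.53 ± 0.03, H2-T23 by -0.53 ± 0.03, H2-Q4 by -0.59 ± 0.05, and the shared light chain B2m by -0.36 ± 0.03. Class I genes are near-identical in parts, so reads may have been divided among them. Canx, the chaperone calnexin, rose (0.14, adjusted p = 0.0414), and it lost its call with TMM rescaling (0.0682), with batch blocked (0.0824), with no filter on low values (0.0957), with quantile normalization (0.286), and without AOAH 1 (0.0535), AOAH 3 (0.0513), AOAH 4 (0.0872), PC 1 (0.0799), PC 2 (0.0775) or PC 3 (0.124).

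Metabolic genes of growing cells were higher with AOAH. Of 37 glycolysis and hypoxia genes, 31 rose and 2 fell (median 0.33). Slc16a3, the lactate exporter MCT4, stood at 26.8, 25.1, 27.4 and 23.9 TPM with AOAH and 8.04, 6.24 and 8.51 TPM with PC, with vehicle at 10.5 ± 2.24 (1.65 ± 0.10, adjusted p = 1.10e-05). Ak4, a hypoxia-induced adenylate kinase of mitochondria, stood at 15.0, 13.04, 16.3 and 21.6 against 3.69, 3.51 and 5.95 TPM, with vehicle at 7.36 ± 3.17 (1.71 ± 0.20, adjusted p = 3.02e-04). For both genes AOAH was the group that stood apart and vehicle lay near PC. Tpi1, triose phosphate isomerase, differed by 0.89 ± 0.03, enolase Eno1 by 0.50 ± 0.02, Pgam1 by 0.51 ± 0.02, and lactate dehydrogenase Ldha by 0.44 ± 0.02 (adjusted p = 2.81e-06). The glucose transporter gene Slc2a1 differed by 0.33 ± 0.04 (adjusted p = 3.54e-04). Anxa2 (-0.79, adjusted p = 1.00e-04), a membrane-binding annexin, and Ndrg1 (-0.31, adjusted p = 0.00464), a hypoxia-responsive gene, fell.

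Building blocks for DNA followed. Of 22 nucleotide synthesis genes 19 rose and none was called lower (median 0.34). Dut, which clears dUTP, differed by 0.79 ± 0.03, Dctpp1 by 0.53 ± 0.03, and the purine enzymes Paics by 0.49 ± 0.03 and Ppat by 0.41 ± 0.03. Of 14 serine and one-carbon genes, 13 rose (median 0.30), among them the mitochondrial serine carrier Sfxn1 (0.44), Ahcy (0.40), Mthfd2 (0.33) and Phgdh, the entry enzyme of serine synthesis (0.28). Adjusted p-values of these genes ran from 2.49e-06 for Dut to 4.61e-05 for Phgdh. In the tricarboxylic acid cycle 17 of 26 genes rose and none was called lower (median 0.15), with Idh3a at 0.36 ± 0.03. The malic enzyme Me2 (0.37), the complex II subunit Sdhd (0.36) and the succinyl-CoA ligase subunit Suclg2 (0.37) rose alike.

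Ribosome genes parted by role. Of 44 genes of MYC response and ribosome assembly, 36 rose (median 0.22), with nucleolin Ncl (0.36 ± 0.02, adjusted p = 1.12e-05) and Nolc1 (0.43 ± 0.03) of lowest p. The nucleolar helicase Ddx21 (0.26) and nucleophosmin Npm1 (0.27) rose in similar steps. Dph2 (-0.19, adjusted p = 0.00906) and Polr1c (-0.11, adjusted p = 0.0426) fell, and Polr1c lost its call when vehicle joined the fit (0.0990), with batch blocked (0.160), with no filter on low values (0.0926), and without AOAH 2 (0.0827), AOAH 3 (0.0904), AOAH 4 (0.0971), PC 2 (0.0757) or PC 3 (0.148). Of 51 ribosomal protein genes, 40 fell and none was called higher, in small steps with a median of -0.11. Rps27 differed by -0.37 ± 0.03 and Rplp2 by -0.25 ± 0.02. Rpl12 (-0.21) and Rps15 (-0.17) followed. With TMM rescaling 37 fell, and with quantile normalization 24 fell and 1 rose, with medians of -0.12 and -0.05. Of 70 nuclear genes of oxidative phosphorylation 23 rose and 3 fell (median 0.08), against 24.3% and 21.5% of all genes, with Atp5b, the catalytic subunit of ATP synthase, at 0.18 ± 0.02. Atp5a1, its partner subunit (0.19), and the complex III genes Uqcrfs1 (0.25) and Uqcr10 (0.29) rose as well. The 3 that fell were complex I genes, Ndufa13 (-0.20), Ndufa6 (-0.24) and Ndufa2 (-0.14). With quantile normalization 12 genes of this list rose and 11 fell, and with batch as a block 1 fell. Ndufa6 lost its call with batch blocked (0.0608), and Ndufa2 with batch blocked (0.101), with no filter on low values (0.0697), and without AOAH 2 (0.0617), AOAH 3 (0.0640), PC 2 (0.104) or PC 3 (0.0793).

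Lipid genes are of interest here because 1 agent is a phospholipid and the other a lipase. Genes of phosphatidylcholine synthesis and remodelling were called 7 times higher and 5 times lower among 29 (41.4% called, against 45.8% of all genes), with a median of 0.00. Pcyt1a, the rate-limiting enzyme of phosphatidylcholine synthesis, stood at 19.6, 18.1, 21.6 and 20.2 TPM with AOAH and 10.7, 13.8 and 10.9 TPM with PC (0.71 ± 0.10, adjusted p = 5.98e-04). Selenoi, which makes phosphatidylethanolamine, rose by 0.32 ± 0.04. Pnpla8, a calcium-independent phospholipase (-0.65 ± 0.06), Pld3 (-0.44 ± 0.04), the choline transporter-like gene Slc44a2 (-0.37 ± 0.04) and choline kinase beta Chkb (-0.60 ± 0.08) fell. Lypla2, a thioesterase, fell slightly (-0.13, adjusted p = 0.0475), and it lost its call with no filter on low values (0.106), and without AOAH 1 (0.0732), AOAH 2 (0.0979), AOAH 4 (0.0994), PC 1 (0.0901), PC 2 (0.0517) or PC 3 (0.159).

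Fatty acid synthesis and desaturation genes rose in 12 of 18 cases (median 0.25). The stearoyl-CoA desaturase gene Scd2 stood at 18.4, 16.2, 19.3 and 16.7 TPM with AOAH and 11.1, 9.85 and 10.5 TPM with PC, with vehicle at 17.4 ± 1.36 (0.70 ± 0.07, adjusted p = 1.60e-04). Vehicle thus lay with AOAH. Fads1, the delta-5 desaturase that makes arachidonic acid, stood at 15.2, 16.0, 15.8 and 15.3 against 12.2, 11.7 and 11.8 TPM (0.36 ± 0.05, adjusted p = 4.42e-04). The fatty acid-activating enzyme Acsl5 differed by 0.36 ± 0.03 and fatty acid synthase Fasn by 0.30 ± 0.04. Acss2, which activates acetate, was the 1 that fell (-0.63, adjusted p = 8.22e-04). Among 30 genes of fatty acid oxidation and PPAR response, 10 rose and 5 fell (50.0% called, against 45.8% of all genes). The lipid carrier gene Fabp5 differed by 0.84 ± 0.04, the lipid droplet coat gene Plin2 by 0.61 ± 0.05 and the monoacylglycerol lipase gene Mgll by 0.77 ± 0.09, while Dgat1, which makes triacylglycerol, fell (-0.67 ± 0.06). The lysosomal acid lipase gene Lipa (-0.34) and the acyl-CoA thioesterase Acot2 (-0.31) fell as well. Without AOAH 2, without PC 2 or with no filter on low values, 3 genes of this list fell.

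Cholesterol synthesis genes were called 4 times higher and 6 lower of 25 (40.0% called, against 45.8% of all genes), with Idi1, an isomerase of the early pathway, at 0.33 ± 0.03 and Msmo1, a late sterol oxidase, at -0.40 ± 0.05. Stard4, a sterol carrier (0.40), and Acat2 (0.35) rose, and Mvd, of the mevalonate steps, fell (-0.33). The lower calls were 2 with batch as a block or without PC 3, and 3 without AOAH 2. Targets of the liver X receptors, sterol-sensing factors of cholesterol export, fell in 6 of 12 cases (median -0.29, 58.3% called against 45.8% of all genes). Scd2, given above, is also on this list and was the member that rose. Arl4c stood at 15.4, 13.3, 14.6 and 13.2 TPM with AOAH and 38.5, 40.3 and 38.9 TPM with PC, with vehicle at 30.5 ± 1.09 (-1.41 ± 0.06, adjusted p = 3.15e-06). Mylip, which sends the LDL receptor to degradation, differed by -1.09 ± 0.10 and Smpdl3a by -0.92 ± 0.09, and both vehicle means, 6.70 ± 0.160 and 10.2 ± 0.905 TPM, lay near PC. Eicosanoid and cyclic AMP genes fell in 7 and rose in 2 of 18 cases, with a median of -0.03 (50.0% called, against 45.8% of all genes). Those that fell include the phosphodiesterases Pde4b (-0.99 ± 0.06) and Pde3b (-0.44 ± 0.03), the adenylate cyclase Adcy7 (-0.71 ± 0.05) and the prostaglandin E2 receptor Ptger2 (-0.40 ± 0.06, adjusted p = 9.29e-04). The prostaglandin synthase and co-chaperone Ptges3 (0.25) and Lta4h, the hydrolase that makes leukotriene B4 (0.32), rose.

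Stress responses differed by branch. In the integrated stress response list, 12 of 31 fell with AOAH and 8 rose (64.5% called, against 45.8% of all genes). The share of rises was near the 24.3% of all genes called higher, while 21.5% of all genes were called lower. Trib3, a pseudokinase that ATF4 and CHOP induce, stood at 4.25, 3.06, 3.52 and 3.75 TPM with AOAH and 10.4, 10.1 and 10.7 TPM with PC, with vehicle at 4.94 ± 0.535 (-1.30 ± 0.09, adjusted p = 2.34e-05). Ddit3, which codes for CHOP, differed by -1.10 ± 0.11 and Wars1, a tRNA synthetase that interferon also induces, by -0.44 ± 0.03. The genes that rose were mainly enzymes of amino acid and tRNA charging pathways, with Mthfd2, Phgdh, Psat1 (0.33) and Eprs (0.28) of lowest p. Cth, which makes cysteine, rose too (0.29). Gars, Aldh18a1 and Tars, given below, rose but lost their calls under some settings. Chaperone and degradation genes of the endoplasmic reticulum fell in 18 of 32 cases (median -0.14), while 21.5% of all genes were called lower. Summed over that list, transcripts stood at 5357 to 5440 TPM with AOAH, 4919 to 5104 with vehicle and 5729 to 5772 with PC. Dnajb9, a co-chaperone of BiP, differed by -0.63 ± 0.06 and Selenos by -0.42 ± 0.03. Manf (-0.20) and the PERK pathway regulator Dnajc3 (-0.24) fell by less. For Manf, the authors' deposited log2 fold changes against vehicle were 0.12 for AOAH and 0.33 for PC. Sdf2l1 (0.09, adjusted p = 0.0352) and calnexin rose. Sdf2l1 lost its call with TMM rescaling (0.0748), with batch blocked (0.0821), with no filter on low values (0.0720), with quantile normalization (0.402), and without AOAH 1 (0.0596), AOAH 3 (0.0785), AOAH 4 (0.0725), PC 2 (0.118) or PC 3 (0.0812). Heat shock genes went the other way, 14 of 22 higher (median 0.18), with the largest rises in the mitochondrial chaperonin Hspd1 (0.35 ± 0.02) and Hsp90aa1 (0.35 ± 0.03). Stip1, which links HSP70 to HSP90 (0.25), and Hspa4 (0.26) rose as well. Dnajb1, a co-chaperone of HSP70, fell (-0.13, adjusted p = 0.0376) and lost its call with no filter on low values (0.0787), and without AOAH 1 (0.0785), AOAH 2 (0.0864), AOAH 3 (0.0525), PC 2 (0.0960) or PC 3 (0.126).

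NRF2 targets and peroxide defence genes were divided, 15 lower and 11 higher of 38 (68.4% called, against 45.8% of all genes). Over all genes 24.3% were called higher and 21.5% lower, and the share of rises in this list was near the former. Hmox1, heme oxygenase, stood at 2.57, 3.89, 2.35 and 2.62 TPM with AOAH and 7.82, 7.41 and 8.37 TPM with PC, with vehicle at 3.56 ± 0.609 (-1.22 ± 0.13, adjusted p = 2.08e-04). Sqstm1, the autophagy receptor p62, differed by -0.81 ± 0.04, and the ferritin light chain gene Ftl1 by -0.42 ± 0.02. All 3 stood highest with PC. Tkt, of the pentose phosphate pathway (0.26 ± 0.03), and the peroxiredoxin Prdx3 (0.20 ± 0.03) rose with AOAH. Esterase D (Esd) fell (-0.44), while glutathione reductase Gsr (0.19) and the lipid peroxide reductase Gpx4 (0.21) rose. The higher calls were 7 with batch as a block or with quantile normalization. Of 28 p53 targets 10 fell and 5 rose (53.6% called, against 45.8% of all genes), with Trp53inp1 at -1.52 ± 0.08, the antiproliferative gene Btg2 at -0.84 ± 0.06 and the death gene Bbc3 (PUMA) at -1.07 ± 0.13. Gtse1, which is itself expressed in G2 and M phase, rose (1.09 ± 0.06). Sesn1, a stress-induced brake on mTORC1, fell (-0.68), and the death receptor Tnfrsf10b (0.48) and the kinase Plk2 (0.25) rose. With quantile normalization or without PC 1, 3 p53 targets rose. Lysosome and autophagy genes fell in 15 and rose in 5 of 35 cases (57.1% called, against 45.8% of all genes). Cathepsins stood on both sides: Ctsd (-0.43) and Ctss (-0.57) fell, and Ctsz (0.25) and Ctsc (0.20) rose. The lysosomal hydrolase genes Gaa (0.21) and Hexa (0.23) rose too.

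Among 22 integrin and adhesion genes, 11 fell and 6 rose (77.3% called, against 45.8% of all genes). The mucosal integrin chains Itgae (-0.72 ± 0.07) and Itgb7 (-0.71 ± 0.07) fell, and Itgb1 rose (0.26 ± 0.03). Spn, the sialophorin CD43, fell (-0.29). Cd24a (0.45), Alcam (0.38), Icam1 (0.20) and Ly6c2 (0.23), all surface proteins, rose. Survival and death genes were called 8 times in each direction among 29, near the shares over all genes (24.3% higher and 21.5% lower). Ripk3, the kinase of necroptosis, rose (0.38, adjusted p = 1.95e-04). Higher calls in this list numbered 5 with batch as a block or without PC 2. Amino acid transporter genes were called 6 times in each direction among 17 (70.6% called, against 45.8% of all genes). Slc16a10, an aromatic amino acid carrier, stood at 24.2, 26.7, 26.1 and 27.9 TPM with AOAH and 15.3, 16.9 and 18.6 TPM with PC (0.61 ± 0.07, adjusted p = 3.57e-04), and Slc3a2, the heavy chain of the CD98 carriers, fell (-0.23 ± 0.03). Slc43a3, a purine carrier of an amino acid transporter family, rose (0.61) and the arginine carrier Slc7a3 fell (-0.70). The higher calls among these carriers were 3 with batch as a block or without PC 2, and the lower calls 3 with a filter of 5 TPM. In the mitochondrial genome, mt-Nd1 rose (0.19 ± 0.03) and mt-Co1 fell (-0.15 ± 0.02). Of the other transcripts of that genome, mt-Nd2 rose (0.12) and mt-Cytb fell (-0.15). In all, 4 of its 13 tested transcripts were higher and 3 lower, near the shares over all genes, and with quantile normalization 6 were lower.

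Of 13 nuclear and long noncoding RNAs, 5 fell and 1 rose (median -0.07), and 46.2% were called, against 45.8% of all genes. With batch as a block or without AOAH 4, 2 rose. The largest falls were those of Neat1 and Malat1. Neat1, the scaffold of paraspeckles, stood at 19.9, 14.2, 21.9 and 15.1 TPM with AOAH and 67.6, 80.3 and 69.9 TPM with PC, with vehicle at 39.9 ± 0.919 (-1.99 ± 0.15, adjusted p = 3.99e-05). Malat1, of nuclear speckles, stood at 136, 117, 130.01 and 96.6 against 234, 311 and 296 TPM, with vehicle at 193 ± 2.12 (-1.22 ± 0.14, adjusted p = 3.49e-04). Both were separate between all 3 groups. Mir155hg, the host transcript of miR-155, fell by less (-0.40), and Snhg5, a host of small nucleolar RNAs, rose (0.21). The part of these RNAs in the other results was not tested.

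Markers of other cells differed widely in level. Of the B cell list 8 of 15 genes were tested and 1 was called, Ighm (-0.34 ± 0.03, adjusted p = 1.01e-04), which stood at 125, 131, 132 and 124 TPM with AOAH and 162, 167 and 159 TPM with PC. With batch as a block, when vehicle joined the fit or without AOAH 4, 2 were called lower. Cd74, the invariant chain, reached 21.5 TPM with AOAH and 17.96 TPM with PC, and Cd79b, a chain of the B cell receptor, 8.29 and 7.03 TPM. The other defining B cell genes Ms4a1, Cd79a and Pax5 reached at most 0.11, 0.45 and 0.45 TPM. The summed B cell list stood at 155 to 166 TPM with AOAH and 193 to 202 with PC. Of the myeloid list, Lyz2 was the gene called (-1.01, adjusted p = 0.0217), at 0.400 ± 0.400 against 1.83 ± 0.853 TPM. Lyz2 lost its call with no filter on low values (0.0528), and without AOAH 1 (0.0514) or AOAH 3 (0.0507), and it fell below the filter without PC 2 or PC 3. Csf1r reached at most 0.10 TPM, and the sums stood at 6.17 to 8.34 and 9.39 to 11.2 TPM. Of 6 tested genes of NK, CD4 and gamma delta T cells 4 were called lower, among them Gata3 (-0.57), with sums of 11.2 to 14.3 and 18.7 to 21.8 TPM. The lower calls were 2 without AOAH 1, AOAH 3 or PC 2, with a pseudocount of 0.1, with quantile normalization or with no filter on low values, and 0 with a filter of 5 TPM. No red cell or platelet gene passed the filter. The part of these cells in the results was not tested.

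Several of the genes named by the rule had small differences that did not survive every setting. In the stress lists, Gars (0.14, adjusted p = 0.00123) lost its call with quantile normalization (0.0906), Aldh18a1 (0.17, adjusted p = 0.0158) with batch blocked (0.0595), and Tars (0.11, adjusted p = 0.0420) when vehicle joined the fit (0.0594), with batch blocked (0.101), with no filter on low values (0.0846), with quantile normalization (0.104), and without AOAH 2 (0.0870), AOAH 3 (0.0885), AOAH 4 (0.0938), PC 1 (0.118) or PC 2 (0.131). Acsl4 (0.14, limma adjusted p = 0.00791) lost its call with batch blocked (0.0518). Among NRF2 targets and peroxide defence genes, Gstp1 (0.15, limma adjusted p = 0.00868) lost its call with quantile normalization (0.193). Pgd (0.12, adjusted p = 0.0113) lost it with batch blocked (0.0591) and with quantile normalization (0.134), Gpx1 (0.15, adjusted p = 0.0187) with quantile normalization (0.0530), and without PC 2 (0.0654), and Gstm1 (0.34, adjusted p = 0.0159) with batch blocked (0.0683), and without PC 2 (0.0584). Prdx2 (0.08, adjusted p = 0.0451) lost it when vehicle joined the fit (0.226), with TMM rescaling (0.0703), with batch blocked (0.147), with no filter on low values (0.0846), with quantile normalization (0.577), and without AOAH 1 (0.0837), AOAH 2 (0.0681), AOAH 3 (0.0660), AOAH 4 (0.0991), PC 1 (0.131) or PC 3 (0.143). Trp53 itself, the p53 gene (0.12, adjusted p = 0.0147), lost its call with quantile normalization (0.221), and without PC 1 (0.0543), and Rps27l (0.14, adjusted p = 0.0296) with TMM rescaling (0.0532), with no filter on low values (0.0723), with quantile normalization (0.0630), and without AOAH 4 (0.0619), PC 1 (0.0906) or PC 3 (0.0846). The interleukin-12 receptor chain Il12rb2 (0.22, adjusted p = 0.0303) lost its call with batch blocked (0.0730), with no filter on low values (0.0695), and without AOAH 1 (0.0550), AOAH 2 (0.0530), AOAH 3 (0.0667), PC 1 (0.0968) or PC 3 (0.106). Of the fatty acid oxidation genes, Acadm (-0.28, adjusted p = 0.0209) lost it with no filter on low values (0.0549), and without AOAH 2 (0.0509), PC 2 (0.0507) or PC 3 (0.0758), and Cpt1a (-0.21, adjusted p = 0.0325) with batch blocked (0.141), with no filter on low values (0.0713), and without AOAH 1 (0.0698), AOAH 2 (0.0745), AOAH 4 (0.0721), PC 1 (0.109) or PC 2 (0.0910). The LFA-1 chain Itgal (0.09, adjusted p = 0.0392) lost its call with batch blocked (0.115), with no filter on low values (0.0806), with quantile normalization (0.447), and without AOAH 2 (0.0574), AOAH 3 (0.0704), AOAH 4 (0.0879), PC 1 (0.130) or PC 3 (0.0957), cathepsin B (Ctsb, 0.23, adjusted p = 0.0396) with no filter on low values (0.0943), with quantile normalization (0.0528), and without AOAH 1 (0.0646), AOAH 3 (0.0730), AOAH 4 (0.0819), PC 1 (0.127) or PC 2 (0.109), and mt-Co2 (-0.16, adjusted p = 0.0456) when vehicle joined the fit (0.0523), with batch blocked (0.153), with no filter on low values (0.101), with quantile normalization (0.0514), and without AOAH 2 (0.0876), AOAH 4 (0.1002), PC 1 (0.137) or PC 2 (0.142). Of the remaining marker genes, Trdc of gamma delta T cells (-0.35, adjusted p = 0.0431) lost its call with batch blocked (0.162), with no filter on low values (0.0548), with a pseudocount of 0.1 (0.0563), with quantile normalization (0.101), and without AOAH 1 (0.0753), AOAH 3 (0.0791), AOAH 4 (0.0952), PC 1 (0.0999), PC 2 (0.105) or PC 3 (0.109), and Klra7 of NK cells (-0.46, adjusted p = 0.0450) when vehicle joined the fit (0.102), with array weights (0.0529), with no filter on low values (0.0902), with a pseudocount of 0.1 (0.0503), with quantile normalization (0.0888), and without AOAH 1 (0.0938), AOAH 3 (0.0935), AOAH 4 (0.0515), PC 1 (0.106) or PC 2 (0.154). In each case the fitted difference kept its sign.

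The authors' deposited tables compare each agent with vehicle, so the values of the 2 agents share control libraries and are set side by side only to place the genes. In the authors' deposited table, the log2 fold change of Klf2 was -1.88 for AOAH (adjusted p = 8.89e-52) and 1.21 for PC (adjusted p = 1.27e-41). In the authors' deposited table, that of Mki67 was 0.34 for AOAH (adjusted p = 0.0515) and -1.66 for PC (adjusted p = 1.78e-82), and that of Gzmb was -0.04 for AOAH (adjusted p = 0.405) and -0.80 for PC (adjusted p = 7.52e-91). For Mki67 and Gzmb the authors' deposited values are large for PC and small for AOAH. The authors' deposited table gives -2.15 for AOAH (adjusted p = 2.97e-38) and 0.26 for PC (adjusted p = 5.00e-04) for Il7r, where the larger value is that of AOAH. Ccl1 stands in the authors' deposited table at -0.21 for AOAH (adjusted p = 0.174) and 1.57 for PC (adjusted p = 9.67e-59), and Pdcd1 at 0.47 for AOAH (adjusted p = 3.63e-09) and 0.45 for PC (adjusted p = 8.59e-07). The genes that separate AOAH from PC therefore sit in different places relative to vehicle in the authors' deposited table: Klf2 on both sides of it, Il7r mainly below it with AOAH, and Gzmb and Ccl1 away from it with PC.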

How the data were processed

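RNA of mouse CD8+ T cells was sequenced in 11 libraries, of which 4 AOAH and 3 PC libraries entered the tests. Per the submitters' processing notes, the authors quantified genes with RSEM and used build mm39 and DESeq2. The aligner, the annotation, tool versions and how molecular identifiers were used are not stated in the labels or notes. The deposited expression values are log2(TPM + 1), as the sums of their back-transformed values show, and the authors' TPM carry no depth, so no depth per library can be given. Per the file headers, the authors also deposited DESeq2 results for each agent against vehicle, with a fold change, its standard error, a test score and a p-value. The repertoire counts were deposited as well.

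Groups and batch numbers came from the labels. Values were back-transformed to TPM, genes averaging 1 TPM or more in the 7 libraries were kept, and log2(TPM + 1) was fitted in limma 3.58.1 (R 4.3.3), with a variance trend and robust moderation. All limma p-values were two-sided and Benjamini-Hochberg adjusted over 11596 genes, with a threshold of 0.05, and differences are AOAH minus PC. Errors are SD over libraries or SE of the fit. Values kept 2 decimals of TPM in the deposited table. Vehicle libraries entered only as means, except in 1 alternative. The script was tested on simulated data with known changes before use.

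The genes compared, the 44 gene lists and a panel of single genes were chosen with earlier results of these data known. Genes were named by a rule that takes the 12 largest differences in each direction among called genes that reach a group mean of 5 TPM and do not overlap, passing over receptor segments and symbols without a name of their own (7 were passed over among the falls), the panel, and for each list the 4 called members of lowest p and any called against its majority. The rule gave 274 genes, and 28 more were chosen after their values were seen: B2m, Btg1, Ccl5, Ddit3, Dusp2, Ifit1, Isg15, Pcyt1a, Ptger2 and Slc16a3, and the genes described among the other observations. A few of them are not reported here. A list is described by its counts and median, with no test of its own.

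Batch numbers pair libraries across the agents, since the labels give them as batches. Deviations from the group means correlated between libraries of the same batch with a mean r of 0.04 across genes (3 pairs, -0.02 to 0.12), against -0.01 between batches (9 pairs, -0.09 to 0.11). Alternatives, 17 in all, changed the pseudocount to 0.1 or 5, the filter to none or 5 TPM, the scaling (unweighted TMM factors, quantile normalization, or leaving out mitochondrial and receptor segment genes), the libraries in the fit, the library weights and the batch term, or left out each library in turn.

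Promoter letters came from RefSeq on GRCm38.p6 and were matched by symbol, which succeeded for 8510 of the 11596 tested genes. Some genes have more than 1 promoter in that table. Tables were handled in Python 3.11.15 with pandas 2.3.3.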

Additional observations from a re-analysis of the deposited data

Results flagged for a closer look

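Within the 4 AOAH libraries, 15 of the 302 named genes had 1 library that stood apart from the other 3 by Dixon's criterion. Chance alone meets it in about 1 in 20 groups, so this is about the number that chance gives. The library was the highest for 9 of them. Btla stood at 26.68 TPM in AOAH 4, against 25.54 to 25.67 in the others. Socs3 stood at 10.91 TPM in AOAH 1 (others 9.82 to 9.95), Slc43a3 at 47.2 TPM in AOAH 1 (others 44.8 to 45.19) and mt-Cytb at 2990.51 TPM in AOAH 1 (others 2797.75 to 2830.16). Idh3a stood at 114.92 TPM in AOAH 2 (others 107.05 to 107.98). In AOAH 3, Suclg2 stood at 37.72 TPM (others 35.51 to 35.82), Cpt1a at 14.18 TPM (others 12.4 to 12.64), Trp53 at 165.35 TPM (others 155.14 to 156.21) and Isg15 at 11.3 TPM (others 9.27 to 9.61).

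The library was the lowest for the remaining 6. Tars stood at 66.8 TPM in AOAH 1 (others 70.08 to 70.63) and Btg1 at 55.92 TPM in AOAH 1 (others 58.25 to 58.63). Tkt stood at 365.75 TPM in AOAH 2 (others 381.42 to 384.18) and Ctsz at 100.89 TPM in AOAH 2 (others 105.45 to 106.14). Mthfd2 stood at 156.36 TPM in AOAH 3 (others 158.2 to 158.54) and Paics at 305.53 TPM in AOAH 3 (others 319.59 to 322.21). The PC group has too few libraries for this criterion.

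The deposited receptor repertoire table, which enters no comparison above, listed more clonotypes with PC than in the vehicle libraries. Receptor alpha clonotypes had a mean of 1576.67 with PC (3 libraries, 1514 to 1616), against 991 to 1264 with vehicle and 1057 to 1139 with AOAH. Receptor beta clonotypes had a mean of 2868 with PC (2745 to 2986), against 2017 to 2649 with vehicle and 1892 to 2129 with AOAH. No scaling to depth is visible in that table, and the summed variable segments above were also higher with PC. The part of depth and of receptor RNA level in these counts was not tested.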

How the results depend on the processing

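The number of genes called higher lay between 2240 and 2868 over the alternatives that kept all libraries and between 2413 and 2740 when 1 library was left out, and the number called lower between 2006 and 2614 and between 2011 and 2416. With batch as a replicate block, 2240 genes were higher and 2006 lower. The share of calls that were higher was 53.02%, 50.9% with TMM rescaling and 52.5% with quantile normalization, and the median over all genes stayed within 0.02 of 0 in these settings. Over all alternatives, 46 to 48 G2 and M phase genes, 42 S phase genes, 27 to 31 glycolysis genes and 18 to 19 nucleotide genes were higher, and 26 to 29 naive genes, 39 to 47 interferon genes, 7 to 8 chemokines and 23 to 30 receptor signalling genes were lower. None of these counts moved by more than 1.5 times. Of the 302 named genes 295 were called, 256 of them kept call and direction in every alternative that tested them, and 2 uncalled genes, Ifng and Nr4a1, gained a call. The block changed no other call of a named gene than those given with it. TPM without counts gives no depth, so the counting error of low genes is unknown. The labels do not settle when each agent was added.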

Other observations

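The genes and families of these paragraphs were chosen after their values were seen. GIMAP genes code for GTPases of lymphocytes that support the survival of resting T cells. Of 8 tested, 7 fell with AOAH (21.5% of all genes were called lower), and Gimap7 was not called. Gimap3 stood at 118, 108, 121 and 107 TPM with AOAH and 197, 198 and 192 TPM with PC, with vehicle at 177 ± 2.71 (-0.78 ± 0.05, limma adjusted p = 1.17e-05). Gimap8 differed by -0.69 ± 0.05, Gimap4 by -0.49 ± 0.05 and Gimap6 by -0.43 ± 0.03. The vehicle mean of Gimap3 lay near PC. Kruppel-like factors, to which Klf2 belongs, fell in 6 of 9 cases and rose in 1, against 21.5% and 24.3% of all genes. Klf3, a repressor of the family, stood at 10.2, 8.78, 11.6 and 9.91 TPM with AOAH and 31.2, 33.5 and 35.2 TPM with PC, with vehicle at 17.8 ± 2.07 in between (-1.63 ± 0.09). Klf13 (-0.77 ± 0.04) and Klf6 (-0.37 ± 0.06) fell by less. Other regulators of resting T cells that fell were Rasa3, a GTPase-activating protein for RAS and RAP1 (17.9 ± 1.55 against 51.9 ± 0.586 TPM, -1.49 ± 0.06), the chromatin organizer Satb1 (-0.68 ± 0.04) and the antiproliferative gene Btg1 (-0.59 ± 0.03). The iron store gene Fth1 fell as well (-0.31 ± 0.03).

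Single chromatin genes went both ways. Ezh2, the methyltransferase of Polycomb complex 2, stood at 199, 198, 205 and 203 TPM with AOAH and 123, 125 and 118 TPM with PC, with vehicle at 161 ± 7.13 (0.72 ± 0.03, limma adjusted p = 2.54e-06). Dnmt1, which maintains DNA methylation, stood at 151 ± 4.20 against 95.7 ± 2.03 TPM (0.65 ± 0.03), and the remodeller Hells at 78.4 ± 4.58 against 41.3 ± 2.89 TPM (0.91 ± 0.06). The de novo methyltransferase Dnmt3a rose by less (0.37 ± 0.04). The methyltransferase Kmt2a (-0.77 ± 0.10) fell, as did the DNA demethylase Tet2 (-0.43 ± 0.11, adjusted p = 0.0129). Of 28 kinesins and kinesin-like motors, most of which serve the spindle or transport in axons and cilia, 18 rose and 4 fell. Over all genes 24.3% were called higher and 21.5% lower. Differences of the kinesins ran from -1.22 for Kif21b to 1.65 for Kif11. A pair of hypoxia genes stood higher with AOAH than with either PC or vehicle on average, the oxygen sensor Egln3 (10.3 ± 0.583 with AOAH, 6.58 ± 1.03 with vehicle and 5.37 ± 0.181 TPM with PC, 0.82 ± 0.06) and the mitophagy receptor Bnip3 (14.8 ± 0.790, 8.88 ± 2.35 and 6.43 ± 1.03 TPM, 1.10 ± 0.09).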
